A study of Danio rerio with 15 samples.

Results

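The genes described here encode the proteins that carry out protein synthesis: the eukaryotic initiation factors (eIF), the elongation factors eEF1 and eEF2, the release factor eRF1 and the aminoacyl-tRNA synthetases. They were chosen by gene symbol from the annotation of the array's probe sets (groups of short probes against one transcript), with 1 probe set per gene, the one with the highest mean over all 15 arrays. The rule gave 87 of the 8793 genes that had a probe set with 1 symbol. One of them, abcf2a, was added to the rule by name when its low values after fluoxetine were already known, so its values are a description, and the counts in which it takes part are given for the other 86 genes as well.

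Zebrafish (Danio rerio) larvae were placed at 72 h after fertilization in 200 ml of water holding fluoxetine or sertraline, which are selective serotonin reuptake inhibitors used as antidepressants, and were kept there for 96 h. Each drug was given at 25 µg/L and at 250 µg/L, and control larvae were kept with no drug. The 5 groups comprised 3 beakers each (about 100 larvae, unfed, in a covered beaker), and 1 Affymetrix array was run on the pooled whole-larva RNA of each beaker, so that p-values measure the spread between beakers. No strain, genotype or measured drug concentration is used here, and the same 3 control arrays serve every comparison with control.

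In translation initiation, eIF2 brings the initiator tRNA to the small ribosomal subunit, eIF4F binds the mRNA cap and unwinds the leader with the helicase eIF4A, and eIF3 holds the complex together while it scans for the start codon. eEF1A then delivers aminoacyl-tRNAs made by the synthetases, eEF2 moves the ribosome along, and eRF1 releases the finished protein at a stop codon. These genes are active in every growing tissue, and some of their mRNAs, such as those of eEF1A, are very abundant.

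Few of these genes had a change in mRNA level that passed. After 25 µg/L fluoxetine, eif4a1a, one of the genes for eIF4A, fell 2.28-fold, a log2 difference of -1.19 ± 0.15 (SE) with an adjusted p of 0.000869 (limma, Benjamini-Hochberg over all 15502 probe sets tested). Between the drugs at 25 µg/L, etf1b, which encodes eRF1, was 1.43-fold higher with sertraline than with fluoxetine. No other gene passed apart from abcf2a. With whole larvae, fewer cells of a type and less RNA per cell cannot be told apart.

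Against control, 2 of the 87 genes passed in the 25 µg/L fluoxetine group, both lower, and 1 of 86 without abcf2a; over all probe sets 2.53% passed in that comparison, 0.864% as higher and 1.66% as lower. At an unadjusted p under 0.05 (limma) 5 genes were higher and 8 lower there, or 5 and 7 without abcf2a. The share of all probe sets at that unadjusted level was not counted in any comparison, so such counts are descriptions only. Without replicate 3 of that group 5 of the 87 genes passed, while the calls over all probe sets rose from 392 to 1034. In the 250 µg/L fluoxetine group 1 of 87 passed, abcf2a, and 0 of 86 without it, against 1.15% of all probe sets, 0.458% higher and 0.697% lower. This 1 became 0 without fluoxetine 250 µg/L replicate 1 or 2 or control replicate 3, where 74, 130 and 115 of all probe sets passed in place of 179. In limma's test at an unadjusted p under 0.05, that group had 3 genes higher and 6 lower among the 87, or 3 and 5 without abcf2a. Sertraline gave 0 of 87 at 25 µg/L, where 0.0645% of all probe sets passed (0.00645% higher and 0.0581% lower), and 0 of 87 at 250 µg/L, where 0% did. At an unadjusted p under 0.05 (limma), the counts were 0 higher and 2 lower at 25 µg/L (0 and 1 without abcf2a), and 1 higher and 0 lower at 250 µg/L. The test of any difference among the 5 groups called 3 of 87 genes (abcf2a, eif4a1a and etf1b), 2 of 86 without abcf2a, and 2.79% of all probe sets, so the share of these genes that passed was near the background in each comparison. In this test etf1b was lost without any 1 array other than fluoxetine 25 µg/L replicate 3, and with the replicate block, the GAPDH difference in the fit, the trended and robust prior or the mean of a gene's probe sets; eif4a1a was lost with the last.

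**Figure D1:**
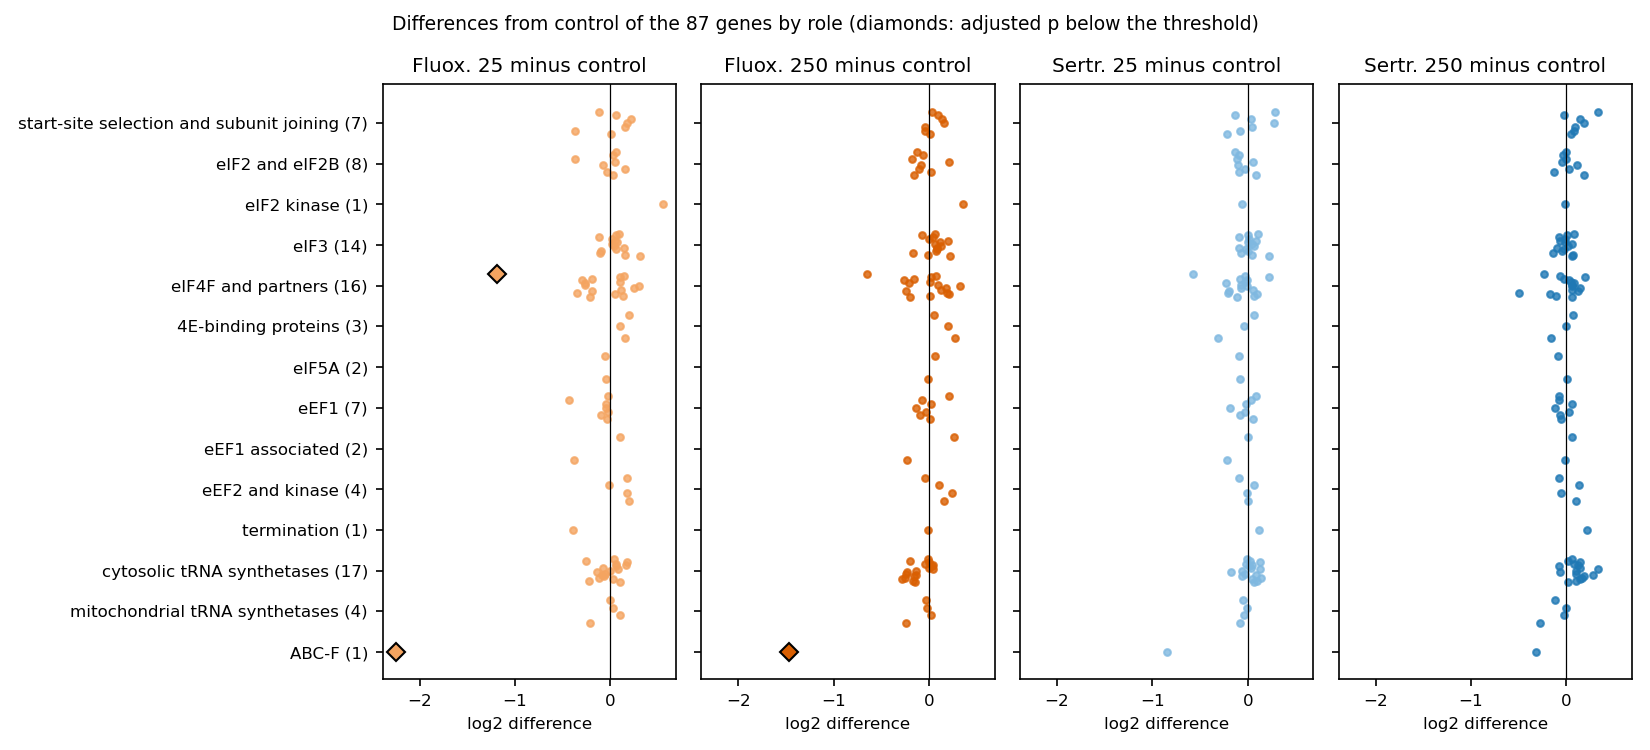
Log2 difference from control of the 87 genes, 1 panel per exposed group and 1 row per role, with the number of genes in parentheses. Each point is a gene and the diamonds passed at an adjusted p of 0.05: abcf2a and eif4a1a at 25 µg/L fluoxetine and abcf2a at 250 µg/L stand to the left. Most other points lie close to 0; those farther out that did not pass include abcf2a at -0.85 (25 µg/L sertraline), eif4a1a at -0.65 (250 µg/L fluoxetine) and -0.58 (25 µg/L sertraline), and eif2ak3 at 0.55 (25 µg/L fluoxetine).

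The middle of the distribution hardly moved. The median log2 difference from control of the 87 genes was 0.02 after 25 µg/L fluoxetine, where that of all probe sets was 0.06. It was 0.00 and -0.02 after 250 µg/L fluoxetine, -0.01 and -0.03 after 25 µg/L sertraline, and 0.02 and -0.04 after 250 µg/L sertraline, again for these genes and for all probe sets. The unadjusted 95% interval of a single gene's difference had a median half-width of 0.24 log2 units, so that smaller changes were not detectable for most of them. A pass after adjustment over all probe sets took more than this. The 0.55 of eif2ak3 at 25 µg/L fluoxetine and the -0.65 of eif4a1a at 250 µg/L fluoxetine did not pass. Genes that did not pass may thus have changed by more than 0.24. For 85, 86, 86 and 86 of the 87 genes (25 and 250 µg/L fluoxetine, then 25 and 250 µg/L sertraline) the whole interval lay within 2-fold of control, compared with 95.1%, 96.6%, 97.8% and 97.2% of all probe sets. It lay within 1.5-fold for 74, 77, 79 and 81 of the 87 genes.

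Arrays of the exposed and the control beakers did not overlap in 7 genes that were higher and 8 that were lower after 25 µg/L fluoxetine, against 18% and 7.26% of all probe sets. At 250 µg/L fluoxetine 4 genes were higher and 12 lower without overlap, against 6.86% and 7.94%. With sertraline 2 were higher and 11 lower at 25 µg/L (3.34% and 6.44% of all probe sets), and 5 were higher and 2 lower at 250 µg/L (4.5% and 9.77%). Without abcf2a the lower counts were 7 and 11 with fluoxetine and 10 and 2 with sertraline, at 25 and then 250 µg/L.

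Several facts of the arrays touch these values. Correlations between arrays over all probe sets ran from 0.982 to 0.997, and the 3 arrays at 25 µg/L fluoxetine resembled each other least, with mean within-group correlations of 0.986 to 0.989. The GAPDH control probe sets gave a 3' minus 5' difference, which grows as RNA degrades, of 1.66 on average in control arrays. Its mean was 1.96 (25 µg/L) and 1.45 (250 µg/L) for fluoxetine, and 2.08 (25 µg/L) and 2.27 (250 µg/L) for sertraline, where replicate 2 at 250 µg/L read 3.16. At 25 µg/L fluoxetine replicates 1, 2 and 3 read 1.53, 1.99 and 2.36. Their 3' minus 5' difference of the acta1 control probe sets was 6.83, 8.55 and 8.95, against 6.86 to 7.54 in control. Replicate 3 of this group and the sertraline array with 3.16 were the 2 arrays with the largest GAPDH difference. Among markers of cell types, 0 of 14 exocrine pancreas genes passed at 25 µg/L fluoxetine (limma), yet their mean log2 level was 5.55 to 8.09 in those arrays against 4.43 to 5.76 in control. Erythrocyte genes, 6 of 8 of them dim, had array means above control except at 25 µg/L sertraline, and those of skeletal muscle overlapped control throughout. Hepatocyte array means were 7.84 to 8.84 at 250 µg/L fluoxetine and 6.96 to 7.72 in control (0 of 14 passed, limma). Intestine array means all lay above control at 250 µg/L sertraline (median difference 0.41, 0 of 10 passed). In the other exposed groups both lists overlapped control. At 25 µg/L fluoxetine hepatocyte array means were 8.55, 8.60 and 6.54 in replicates 1, 2 and 3, and those of intestine 6.25, 6.15 and 5.28. Exocrine pancreas means were 8.09, 7.66 and 5.55 in the same order. Replicates 1 and 2 thus lay above control in each of these lists (intestine control 5.24 to 5.67), and replicate 3 did not. Of 11 neuron genes 1 fell at each fluoxetine concentration (limma), against 1.66% and 0.697% of all probe sets. Neuron array means overlapped control (10.21 to 10.41) throughout, but with fluoxetine only through replicate 3. Replicates 1, 2 and 3 read 9.94, 9.85 and 10.30 at 25 µg/L and 10.00, 10.09 and 10.31 at 250 µg/L. Of 17 proliferation genes 3 fell at 25 µg/L fluoxetine (dnmt1, mcm2 and pcna), against 1.66% of all probe sets. Their array means were 4.54 to 4.78 there and 4.87 to 5.29 in control, over all 17 genes. At 250 µg/L fluoxetine 0 of the 17 passed (limma), with array means of 4.68 to 4.73 that also lay below control. Between the drugs 6 of the 17 were higher with sertraline at 25 µg/L (array means 5.02 to 5.11, median difference 0.48) and 5 of the 17 at 250 µg/L (5.09 to 5.15, median 0.35). Over all probe sets 1.03% and 0.768% passed as higher in these comparisons. The part of these array and marker differences in the results below was not tested, except where a value with the GAPDH difference in the fit is given.

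The start-site factors and subunit-joining factors, 7 genes, had 0 calls in all 4 comparisons with control (limma), with 0 genes at an unadjusted p under 0.05. eif5, whose product triggers GTP hydrolysis on eIF2 at the start codon, had a log2 expression of 9.10 ± 0.01 (SD, n = 3) in control, 9.26 ± 0.26 and 9.07 ± 0.10 with fluoxetine (25, then 250 µg/L), and 9.15 ± 0.02 and 9.19 ± 0.05 with sertraline. The smallest F-test p of this role was that of eif1axa, which encodes eIF1A and helps the small subunit scan: its means were 4.72 ± 0.11 in control, 4.60 ± 0.41 and 4.76 ± 0.26 with fluoxetine, and 5.00 ± 0.25 and 5.05 ± 0.20 with sertraline. Every exposed group of eif1axa overlapped control, and its largest difference from control, 0.33 ± 0.20, did not pass (adjusted p = 0.839, limma).

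The 8 genes of eIF2 and of eIF2B, the factor that recharges eIF2 with GTP, also had 0 calls (limma), with 1 gene, eif2b3, lower at an unadjusted p under 0.05 (25 µg/L fluoxetine). eif2s1b, a gene for the alpha subunit that carries the regulatory phosphorylation site, stayed between group means of 9.21 and 9.35. eif2b1 had the smallest F-test p of these genes, with means of 5.83 ± 0.05 in control, 5.88 ± 0.09 and 5.70 ± 0.04 with fluoxetine, and 5.69 ± 0.06 and 5.83 ± 0.13 with sertraline. Its difference of -0.13 ± 0.07 at 250 µg/L fluoxetine and that at 25 µg/L sertraline were smaller than the median half-width.

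The only eIF2 kinase among the genes was eif2ak3, which encodes PERK, the kinase of the endoplasmic reticulum that phosphorylates eIF2 when unfolded proteins build up. Its log2 expression was 6.29, 5.84 and 5.84 in the control arrays, 6.65, 6.54 and 6.43 at 25 µg/L fluoxetine and 6.20, 6.32 and 6.53 at 250 µg/L. The sertraline arrays gave 5.80, 5.93 and 6.05 at 25 µg/L and 5.65, 6.17 and 6.13 at 250 µg/L. All 3 arrays at 25 µg/L fluoxetine were above every control and every sertraline array, while those at 250 µg/L overlapped control replicate 1. The difference of 0.55 ± 0.16 at 25 µg/L did not pass (adjusted p = 0.094, limma), nor did the one of 0.36 ± 0.16 at 250 µg/L (0.421). It passed at 25 µg/L without control replicate 1 (0.70, adjusted p = 0.0361). Between the drugs at 25 µg/L sertraline differed from fluoxetine by -0.61, which did not pass in the main fit. That difference passed without the dimmest probe sets (adjusted p = 0.0475, limma) and with the trended and robust prior (0.0486). It also passed without fluoxetine 25 µg/L replicate 3 (-0.67, 0.0459) and without the 2 arrays with the largest GAPDH difference (-0.67, 0.0482). The other 2 probe sets of eif2ak3 were dim, with means of 1.94 and 2.29 over all arrays, and differed from control by -0.04 and 0.02 at 25 µg/L fluoxetine.

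The 14 eIF3 subunit genes stayed close to control, with differences from control between -0.17 and 0.31 over the 4 exposed groups and 0 calls (limma). At an unadjusted p under 0.05 there was 1 gene higher at 25 µg/L fluoxetine, eif3s10 (0.31 ± 0.14), and 1 lower at 250 µg/L, eif3jb (-0.17). eif3ea, a core subunit gene, had group means from 11.08 to 11.11. eif3hb had the smallest F-test p of the 14, and its group means spanned 6.84 to 7.08.

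The cap-binding complex eIF4F and its partners, 16 genes, held the call outside abcf2a. eif4a1a encodes eIF4A, the ATP-driven RNA helicase that opens structure in mRNA leaders. Its log2 expression was 8.05, 7.86 and 8.04 in control replicates 1, 2 and 3. At 25 µg/L fluoxetine it was 7.22, 6.61 and 6.56, and at 250 µg/L it was 7.14, 7.32 and 7.54. The fluoxetine arrays were all below every control array, and those at 25 µg/L held the lowest 2 values. With sertraline the values were 7.46, 7.31 and 7.46 at 25 µg/L and 7.75, 7.70 and 7.81 at 250 µg/L. These were also below every control array, the 250 µg/L group by the narrowest margin.

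Against control eif4a1a differed by -1.19 ± 0.15 at 25 µg/L fluoxetine (adjusted p = 0.000869, limma), and this was the only one of its 4 differences that passed. The others were -0.65 ± 0.15 at 250 µg/L fluoxetine (0.0678), -0.58 ± 0.15 at 25 µg/L sertraline (0.541) and -0.23 ± 0.15 at 250 µg/L sertraline (0.841). Within fluoxetine the higher concentration lay 0.53 ± 0.15 above the lower one, and at 25 µg/L sertraline lay 0.61 ± 0.15 above fluoxetine; neither passed (0.199 and 0.0587). Without fluoxetine 25 µg/L replicate 1 both passed (0.75, adjusted p = 0.00843, and 0.82, 0.00243). The difference between the drugs also passed with each array centred (0.0422), without the dimmest probe sets (0.0426), with the trended and robust prior (0.0447) and with the GAPDH difference in the fit (0.0497). The fall at 250 µg/L fluoxetine passed without the dimmest probe sets (0.04) and with array weights (0.0133), as did, with array weights, the difference between the drugs at 250 µg/L (0.50, 0.0318). The fall at 25 µg/L fluoxetine passed without any 1 of the 6 arrays and with the GAPDH difference in the fit (-1.14, adjusted p = 0.00212). It did not pass in a fit of those 2 groups alone (adjusted p = 0.0845).

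A second eif4a1a probe set gave 6.64, 7.05 and 6.78 in control, 5.95, 5.66 and 5.22 at 25 µg/L fluoxetine and 6.29, 5.87 and 6.66 at 250 µg/L. Its difference at 25 µg/L fluoxetine, -1.22 ± 0.38, was as large but did not pass (adjusted p = 0.123, limma), and sertraline 250 µg/L replicate 2 read 5.16 beside 6.91 and 6.77 in its group. The 3 related helicase genes gave small differences: at 25 µg/L fluoxetine eif4a1b differed from control by 0.14 ± 0.11, eif4a2 by 0.10 ± 0.17 and eif4a3, whose product sits in the exon junction complex, by -0.20 ± 0.09, and none passed (adjusted p = 0.418, 0.72 and 0.251, limma). The arrays of the 3 genes overlapped control at that concentration.

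**Figure D2:**
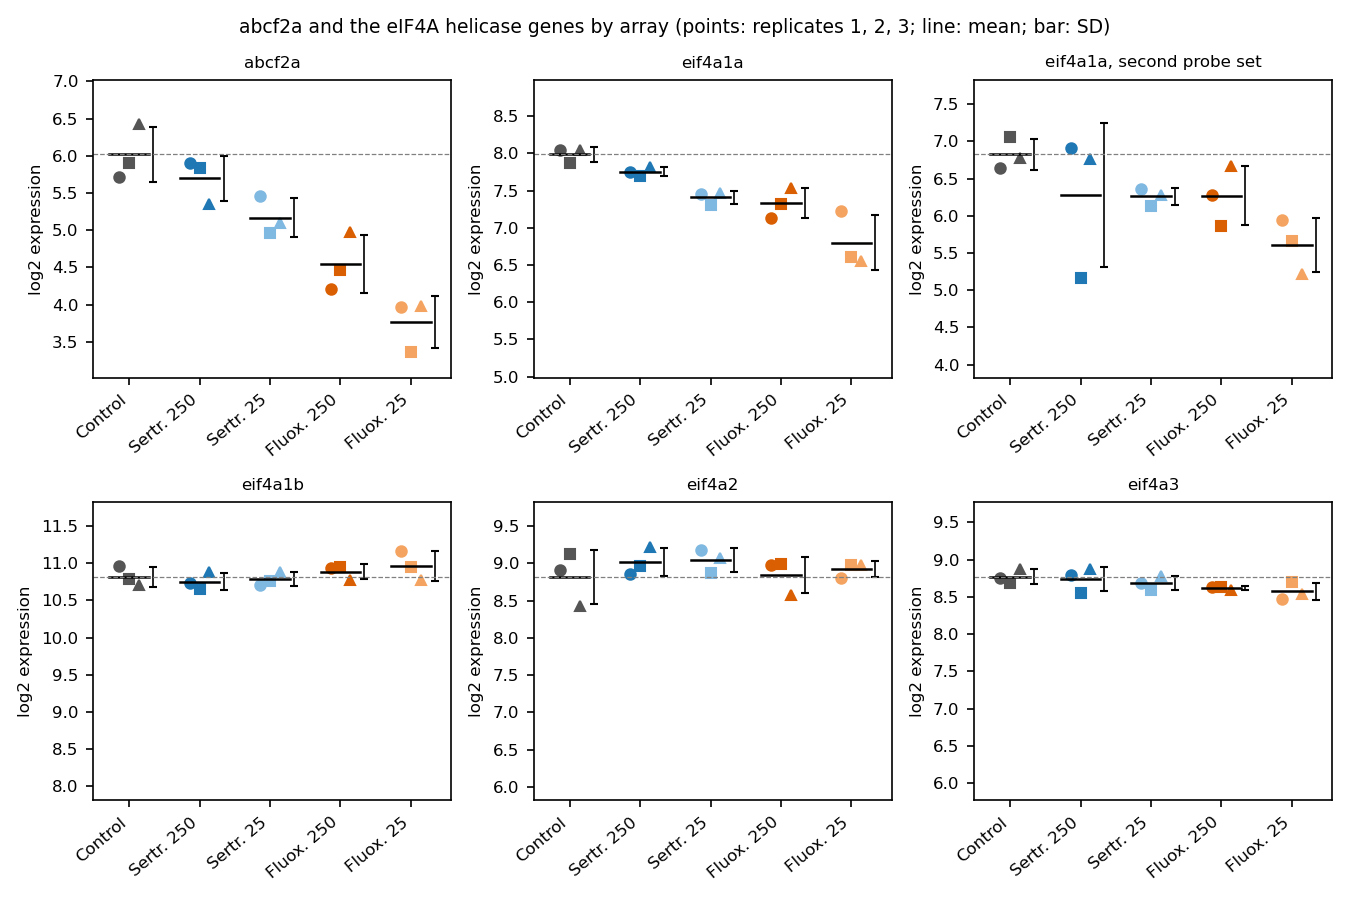
Log2 expression of abcf2a, both probe sets of eif4a1a and 3 other eIF4A genes in each array; symbols are replicates 1 to 3, lines are group means and bars are SD (n = 3), and every panel spans the same number of log2 units. abcf2a and the first eif4a1a probe set step down from control to 25 µg/L fluoxetine, from 6.02 to 3.77 and from 7.99 to 6.80, while eif4a1b, eif4a2 and eif4a3 stay near their control means.

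The order of the group means of eif4a1a was control, 250 µg/L sertraline, 25 µg/L sertraline, 250 µg/L fluoxetine, 25 µg/L fluoxetine, from high to low, so that within each drug the lower concentration had the lower mean. Means of 7.99 ± 0.10, 7.75 ± 0.06, 7.41 ± 0.09, 7.33 ± 0.20 and 6.80 ± 0.37 (SD, n = 3) gave this order, in which 25 µg/L sertraline and 250 µg/L fluoxetine did not differ beyond their spread. The same order was seen in abcf2a, eef1db, eef1e1, eif2b3 and eif4a3, so in 6 of the 87 genes, and in 205 of the 15502 probe sets (1.32%). Since the order was read from eif4a1a, and abcf2a was chosen for its low fluoxetine values, this is a description. Of these 6 genes only abcf2a and eif4a1a spanned more than 1 log2 unit, and eef1db spanned 0.10, less than its SD within groups (0.12). The median span of group means was 0.24 over the 87 genes and 0.24 over all probe sets. The second eif4a1a probe set did not give this order. Its means were 6.82 in control, 6.28 and 6.26 with sertraline (250, then 25 µg/L), and 6.27 and 5.61 with fluoxetine. Both sertraline groups and 250 µg/L fluoxetine were thus nearly level in it.

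The 6 genes with the smallest F-test p among those that did not pass included 5 of the eIF4F group, beside eif2ak3. eif4e3, which encodes a cap-binding protein related to eIF4E, was 6.80, 6.89 and 6.99 in control, 7.01, 7.35 and 7.22 at 25 µg/L fluoxetine and 7.28, 7.17 and 7.22 at 250 µg/L, so every fluoxetine array was above every control array. Its differences of 0.30 ± 0.08 and 0.33 ± 0.08 did not pass (adjusted p = 0.0884 and 0.105, limma), and those with sertraline were -0.01 and 0.06. Without fluoxetine 25 µg/L replicate 1 the first passed (0.39, adjusted p = 0.0157), as it did after quantile normalization (0.35, 0.0471), and the second passed with array weights (0.36, 0.0282). eif4ea, a gene for eIF4E itself, differed by 0.25 ± 0.08 and 0.18 ± 0.08 with fluoxetine and by -0.07 and 0.14 with sertraline. Between the drugs at 25 µg/L eif4ea did not pass in the main fit. It passed there, lower with sertraline, with the replicate block (-0.32, adjusted p = 0.043, limma). It also passed without fluoxetine 25 µg/L replicate 3 (-0.35, 0.0407) and without the 2 arrays with the largest GAPDH difference (-0.35, 0.0496). Not all eIF4E genes leaned up: the dimmer probe set of eif4e1c differed by -0.73 and -0.60 with fluoxetine, in arrays below every control array. These did not pass (adjusted p = 0.061 and 0.187, limma). With the mean of the gene's probe sets the fall at 25 µg/L passed (-0.49, adjusted p = 0.0473).

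Both cofactors of the helicase leaned lower with fluoxetine. eif4bb, for eIF4B, was 8.58 ± 0.17 in control, 8.29 ± 0.08 and 8.32 ± 0.11 with fluoxetine (25, then 250 µg/L), and 8.57 ± 0.05 and 8.61 ± 0.08 with sertraline. eif4h, for eIF4H, was 6.81 ± 0.08 in control, 6.60 ± 0.03 and 6.61 ± 0.04 with fluoxetine, and 6.70 ± 0.01 and 6.87 ± 0.11 with sertraline. The differences of -0.30, -0.26, -0.21 and -0.20 with fluoxetine did not pass (adjusted p = 0.103, 0.245, 0.102 and 0.18, limma), although the fluoxetine arrays of both genes lay below all control arrays. Between the drugs at 250 µg/L eif4h did not pass in the main fit. It passed with each array centred (0.29, adjusted p = 0.0494), quantile normalization (0.27, 0.0338) and array weights (0.29, 0.00835), and without sertraline 250 µg/L replicate 1 (0.32, 0.0385). eif4g2a, whose product is an eIF4G-like scaffold without the cap-binding protein's site, was lowest at 250 µg/L fluoxetine (7.42 ± 0.14) and highest at 250 µg/L sertraline (7.78 ± 0.04), with 7.65 ± 0.08 in control. Its second, dimmer probe set had group means of 5.49 to 5.59, highest in control, and differed by 0.05 ± 0.13 between the drugs at 250 µg/L. eif4a1b was the brightest probe set of this role and had group means of 10.75 to 10.96.

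**Figure D3:**
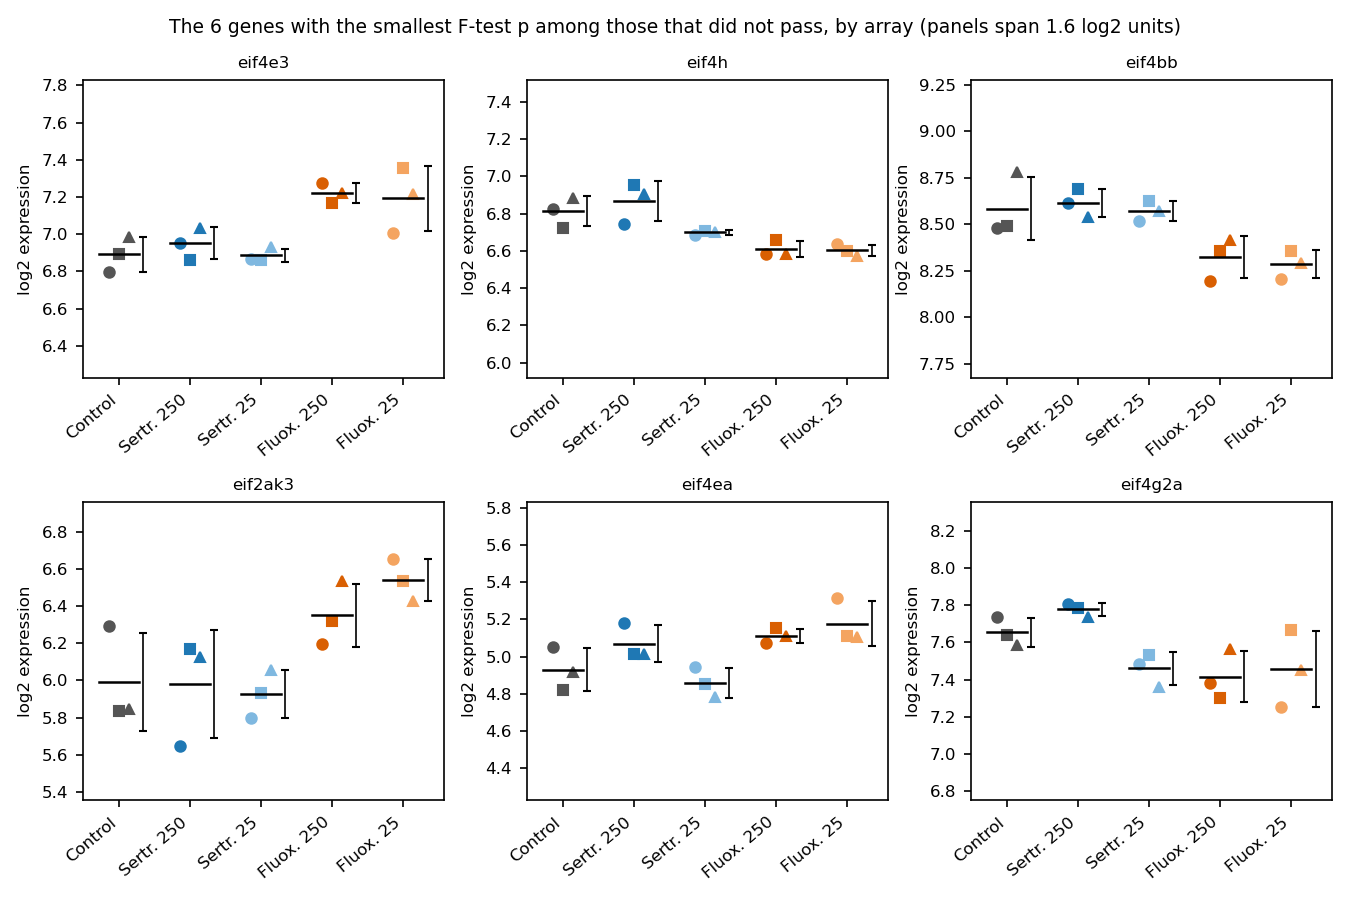
Log2 expression in each array of the 6 genes with the smallest F-test p among those that did not pass; symbols are replicates 1 to 3, lines are group means and bars are SD (n = 3). The fluoxetine arrays are above control for eif4e3 and below control for eif4h and eif4bb, and eif2ak3 is highest at 25 µg/L fluoxetine, by 0.55 log2 units.

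The 3 genes for 4E-binding proteins, which hold eIF4E away from eIF4G until mTOR phosphorylates them, had 0 calls and 0 genes at an unadjusted p under 0.05 in the comparisons with control (limma). eif4ebp2 had group means of 10.57 to 10.82. eif4ebp3l was 8.60 ± 0.08 in control, 8.75 ± 0.25 and 8.87 ± 0.17 with fluoxetine, and 8.28 ± 0.10 and 8.44 ± 0.30 with sertraline. Between the drugs it was lower with sertraline by 0.47 ± 0.15 at 25 µg/L and 0.44 ± 0.15 at 250 µg/L, as differences of -0.47 and -0.44, and neither passed (adjusted p = 0.0987 and 0.226, limma). With the GAPDH difference in the fit the first passed (-0.42, adjusted p = 0.0316).

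The 2 genes of eIF5A, the hypusine-carrying factor that helps ribosomes through difficult peptide bonds, differed from control by at most 0.09 log2 units in either direction in the probe sets used. A dimmer probe set of eif5a differed by -0.20 ± 0.11 at 25 µg/L fluoxetine, and one of eif5a2 by 0.20 ± 0.14 at 250 µg/L fluoxetine. Neither passed (adjusted p = 0.306 and 0.707, limma). eif5a was 11.97 ± 0.06 in control and ranged from 11.88 to 12.03 over the exposed groups.

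Of the 7 eEF1 genes 0 passed (limma) and 1 was lower at an unadjusted p under 0.05, at 25 µg/L fluoxetine. eef1a1l1, a gene for the tRNA-delivering eEF1A, had group means of 14.23 to 14.33 and differed from control by no more than 0.06 ± 0.05. The 1 gene was eef1a1b, another eEF1A gene, with 7.85 ± 0.06 in control, 7.41 ± 0.32 at 25 µg/L fluoxetine and 7.77 to 7.88 in the other groups. Its difference of -0.43 ± 0.14 did not pass (adjusted p = 0.14, limma) but passed without fluoxetine 25 µg/L replicate 3 (-0.56, adjusted p = 0.0376).

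Of the 2 genes associated with eEF1, eef1e1 encodes a small protein of the multi-synthetase complex. It was 7.25 ± 0.16 in control, 6.87 ± 0.55 and 7.02 ± 0.02 with fluoxetine, and 7.03 ± 0.05 and 7.24 ± 0.10 with sertraline, and its difference at 25 µg/L fluoxetine, -0.39 ± 0.20, passed only without replicate 3 of that group, alone or together with another array (-0.64, adjusted p = 0.0292 for replicate 3 alone). The 4 genes of eEF2 and its kinase had 0 calls and 0 genes at an unadjusted p under 0.05 against control (limma). eef2b, for the translocase eEF2, had group means of 12.81 to 12.95. eef2a.1, whose probe set was dim throughout, had means of 3.25 to 3.53. The group means of eef2l2 spanned 0.19 in the probe set used, but a further one varied widely. It differed from control by -0.94 and 0.65 with fluoxetine (25, then 250 µg/L) and by -0.20 and -1.08 with sertraline, each ± 0.78. None of these passed (adjusted p = 0.469 to 0.999, limma). In it sertraline 250 µg/L replicate 2 read 5.41 beside 8.93 and 8.70 in its group.

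The release factor gene etf1b passed in 1 comparison, between the drugs at 25 µg/L. Its log2 expression was 6.39, 6.23 and 6.73 at 25 µg/L fluoxetine and 6.93, 7.06 and 6.91 at 25 µg/L sertraline, with no overlap. The control arrays read 6.86, 6.92 and 6.76, just above all 3 arrays at 25 µg/L fluoxetine, while 250 µg/L fluoxetine (6.85, 6.73 and 6.93) and 250 µg/L sertraline (7.02, 7.15 and 7.02) were close to or above control. Sertraline lay above fluoxetine by 0.52 ± 0.11 at 25 µg/L (adjusted p = 0.0324, limma) and by 0.22 ± 0.11 at 250 µg/L (0.453). In that 25 µg/L comparison 2 of 87 genes passed, both higher with sertraline, 1 of 86 without abcf2a, and 2.1% of all probe sets, 1.03% as higher and 1.06% as lower. The arrays of the drugs did not overlap in 7 genes higher (6 without abcf2a) and 10 lower with sertraline, against 6.86% and 28.8% of all probe sets. Against control the fall of 0.39 at 25 µg/L fluoxetine, a difference of -0.39 ± 0.11, did not pass (adjusted p = 0.0818, limma) but did so without fluoxetine 25 µg/L replicate 3 (-0.54, 0.00354).

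This call rested on few arrays and 1 probe set. It was lost without fluoxetine 25 µg/L replicate 2 (0.41, adjusted p = 0.0973) and without sertraline 25 µg/L replicate 1 (0.53, 0.105), replicate 2 (0.47, 0.102) or replicate 3 (0.54, 0.0745), and with the replicate number as a block (0.0554). The other 3 probe sets of etf1b differed by 0.27, -0.14 and -0.19 between sertraline and fluoxetine at 25 µg/L, and the mean of all 4 gave 0.11 (adjusted p = 0.119). The probe set with a difference of 0.27 was lower than control by 0.53 and 0.57 at 25 and 250 µg/L fluoxetine, as differences of -0.53 and -0.57, which did not pass (adjusted p = 0.0533 and 0.0649, limma).

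**Figure D4:**
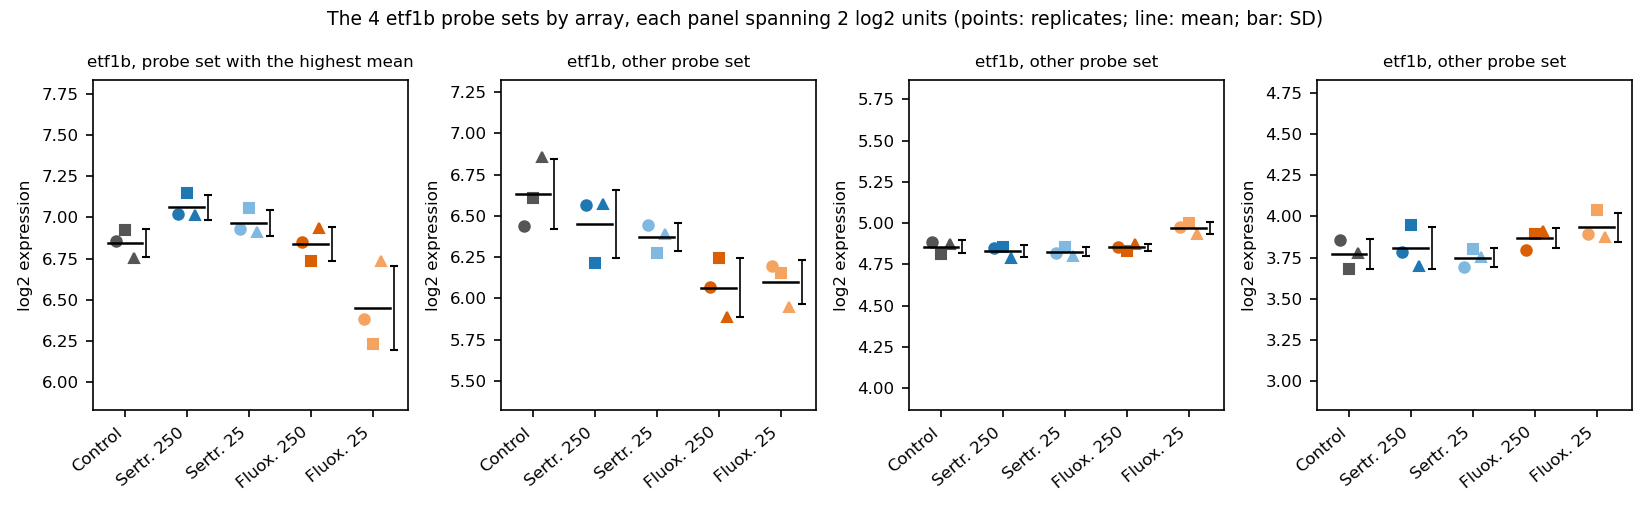
Log2 expression of the 4 etf1b probe sets in each array, each panel spanning the same number of log2 units; symbols are replicates 1 to 3, lines are group means and bars are SD (n = 3). The probe set with the highest mean is lowest at 25 µg/L fluoxetine (6.45), 1 other is low in both fluoxetine groups, and the remaining probe sets vary little.

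The synthetases load each tRNA with its amino acid. Among the 17 cytosolic ones (in mammals the products of gars1 and kars1 also serve mitochondria) 0 passed in any of the 8 comparisons (limma). The median differences from control were 0.00 for 25 µg/L and -0.14 for 250 µg/L fluoxetine. For sertraline they were 0.03 and 0.10, in the same order. At an unadjusted p under 0.05 there was 1 gene, iars1 for isoleucine, higher by 0.33 ± 0.13 at 250 µg/L sertraline.

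The largest shared difference of the synthetases was between the drugs at 250 µg/L, a comparison without control arrays that was singled out after its values were seen. There 16 of 17 were higher with sertraline than with fluoxetine, gars1 for glycine being the exception (-0.10 ± 0.11), with a median of 0.21 against -0.02 over all probe sets. The proliferation genes were apart in the same arrays, with means of 5.09 to 5.15 for sertraline and 4.68 to 4.73 for fluoxetine, and their part in the synthetase difference was not tested. Those with the largest differences were vars1 for valine (0.43 ± 0.20), tars1 for threonine (0.41 ± 0.15), qars1 for glutamine (0.41 ± 0.18), rars1 for arginine (0.35 ± 0.13) and nars1 for asparagine (0.34 ± 0.14). Dim further probe sets of vars1 and qars1 differed by 0.03 and -0.07. A brighter further one of qars1 differed by 0.46 ± 0.13 and did not pass (adjusted p = 0.127, limma). Of the 17, 6 had an unadjusted p under 0.05 (limma), with no share of all probe sets counted beside them. After adjustment 0 passed (limma), the smallest adjusted p being that of tars1 (0.256). The 6 became 2 without fluoxetine 250 µg/L replicate 2 or 3 or sertraline 250 µg/L replicate 2, 3 without fluoxetine 250 µg/L replicate 1 or sertraline 250 µg/L replicate 3, and 3 with the GAPDH difference in the fit. In the remaining alternatives the count ran from 4 (without the 2 arrays with the largest GAPDH difference) to 8 (array weights). It was 7 with each array centred and with the compared groups alone. In 9 of the 17 genes the arrays of both groups did not overlap, all higher with sertraline, against 7.45% of all probe sets higher and 9.4% lower.

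tars1 was 5.83, 6.03 and 5.64 at 250 µg/L fluoxetine and 6.05, 6.53 and 6.16 at 250 µg/L sertraline, with 6.12, 6.31 and 5.83 in control. nars1 was 9.52, 9.81 and 9.88 at 250 µg/L fluoxetine and 9.94, 10.24 and 10.05 at 250 µg/L sertraline, with 9.95, 9.80 and 10.16 in control. In both genes the control arrays overlapped both drug groups, with control means between those of the drugs. The array means over all 17 genes did not overlap at 250 µg/L. They were at most 6.923 with fluoxetine, 7.002 to 7.043 in control and at least 7.125 with sertraline. This separation was not tested. At 25 µg/L the array means of both drugs overlapped control. Gene by gene, 2 of the 17 were apart from control at 250 µg/L fluoxetine, both lower, and 2 at 250 µg/L sertraline, both higher. The median difference of the 17 genes was 0.18 with the GAPDH difference in the fit and 0.23 without sertraline 250 µg/L replicate 2, the array with the largest GAPDH difference. With the mean of a gene's probe sets it was 0.147, the lowest of the alternatives.

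**Figure D5:**
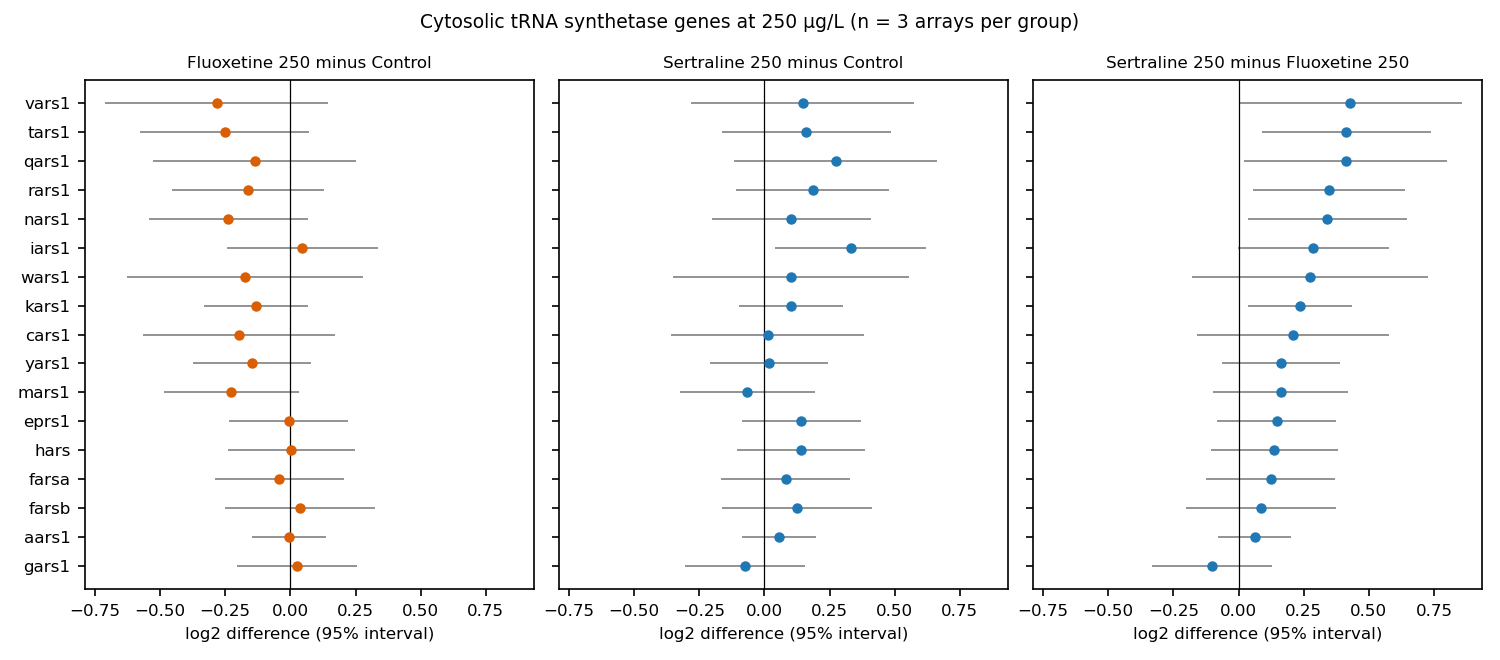
Log2 difference of the 17 cytosolic tRNA synthetase genes at 250 µg/L: fluoxetine from control, sertraline from control, and sertraline from fluoxetine; points are estimates from 3 arrays per group and lines are 95% intervals. In the last panel 16 of 17 points lie to the right of 0, the median is 0.21, and no gene passed after adjustment.

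The 4 mitochondrial synthetases had dim probe sets and 0 calls (limma), with 0 genes at an unadjusted p under 0.05 in the comparisons with control. cars2 for cysteine had group means of 3.26 to 3.39 and rars2 for arginine of 3.16 to 3.30. At such levels the probe sets read close to their background, so a change in these genes may not have been detectable.

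abcf2a encodes an ABC-F protein, a family of ATPases without membrane spans that act at the ribosome. Its log2 expression was 5.72, 5.91 and 6.43 in control, 3.97, 3.37 and 3.98 at 25 µg/L fluoxetine and 4.21, 4.47 and 4.97 at 250 µg/L. With sertraline it was 5.46, 4.96 and 5.09 at 25 µg/L and 5.91, 5.84 and 5.35 at 250 µg/L. Both fluoxetine groups and the 25 µg/L sertraline group lay below every control array, and only the 250 µg/L sertraline group overlapped control. The differences from control were -2.25 ± 0.25 and -1.47 ± 0.25 with fluoxetine and -0.85 ± 0.25 and -0.32 ± 0.25 with sertraline. Sertraline lay above fluoxetine by 1.40 ± 0.25 at 25 µg/L and 1.15 ± 0.25 at 250 µg/L, in arrays that did not overlap. It had 1 probe set, so no second reading of the gene was at hand. At 25 µg/L fluoxetine replicate 2 lay under the 40% dimmest level (3.90), and replicates 1 and 3 just above it. The sizes of differences that involve this group may thus be limited by the background of the probe set.

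At 250 µg/L 1 of the 87 genes passed between the drugs, abcf2a, and 0 of 86 without it, against 1.37% of all probe sets, 0.768% as higher and 0.606% as lower with sertraline. Arrays did not overlap in 20 genes higher (19 without abcf2a) and 8 lower, against 7.45% and 9.4% of all probe sets. At an unadjusted p under 0.05 that comparison had 13 genes higher (12 without abcf2a) and 9 lower with sertraline (limma). The share of all probe sets at this unadjusted level was not counted, so these counts are a description. Within a drug, between concentrations, 0 of 87 passed for fluoxetine (0.252% of all probe sets, 0.245% higher and 0.00645% lower) and 0 for sertraline (0%). Arrays did not overlap in 3 genes higher (2 without abcf2a) and 6 lower at the higher fluoxetine concentration (4.64% and 18.1% of all probe sets), and in 11 higher and 4 lower at the higher sertraline concentration (5.49% and 6.15%). Unadjusted (limma), 5 were higher (4 without abcf2a) and 3 lower at the higher fluoxetine concentration, and 5 were higher and 1 lower at the higher sertraline concentration.

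Beside these genes, 50 other translation genes were measured (poly(A)-binding proteins, release and rescue factors, mTOR pathway genes and mitochondrial factors). Against control 0 of the 50 passed with sertraline (limma). With fluoxetine 1 rose at 25 µg/L, against 0.864% of all probe sets, and 1 rose at 250 µg/L, against 0.458%. The first was akt1s1, for the mTORC1 inhibitor PRAS40: it was 8.96, 8.86 and 8.46 in control and 9.47, 9.35 and 9.14 at 25 µg/L fluoxetine, a difference of 0.56 ± 0.12 (adjusted p = 0.0257). The call was lost without fluoxetine 25 µg/L replicate 1 (adjusted p = 0.0756) or 2 (0.0867), or control replicate 2 (0.0524) or 3 (0.0691). The second was pdcd4b, whose mammalian counterpart binds and inhibits eIF4A.

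pdcd4b was 8.41, 8.68 and 8.57 in control and 9.11, 9.06 and 9.22 at 250 µg/L fluoxetine, a difference of 0.58 ± 0.11 (adjusted p = 0.0214, limma). It was 8.46, 8.50 and 8.51 at 250 µg/L sertraline, 0.64 below fluoxetine as a difference of -0.64 ± 0.11 (adjusted p = 0.0121). The fluoxetine arrays were above all the others at 250 µg/L. The difference from control was lost without fluoxetine 250 µg/L replicate 1 (adjusted p = 0.0787) or 3 (0.0758), or control replicate 1 (0.0898) or 3 (0.0653), and that between the drugs without sertraline 250 µg/L replicate 1 (0.0524) or with the GAPDH difference in the fit (0.0579). At 25 µg/L fluoxetine, where eif4a1a fell, pdcd4b differed from control by 0.36 ± 0.11 and did not pass (adjusted p = 0.111).

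Genes of the amino acid stress response were set beside the synthetases; most are targets in mammals of ATF4, the factor made when eIF2 is phosphorylated and a known activator of several synthetase genes. Of the 20 measured, 4 fell at 25 µg/L fluoxetine (mthfd2, slc3a2b, atf3 and xbp1), 2 fell at 250 µg/L (mthfd2 and slc3a2b), 1 fell at 25 µg/L sertraline (slc3a2b) and 0 passed at 250 µg/L sertraline (limma). Over all probe sets 1.66%, 0.697%, 0.0581% and 0% passed as lower, in the same order. The median differences of the 20 were -0.25, -0.05, -0.06 and -0.08. At 25 µg/L fluoxetine mthfd2, for a mitochondrial folate enzyme, fell by 1.79 and slc3a2b, for an amino acid transporter subunit, by 1.07 on the log2 scale. These falls passed in all 16 alternatives, as did that of mthfd2 at 250 µg/L. The falls of atf3 (-1.03, adjusted p = 0.045) and xbp1 (-0.58, 0.0483) at 25 µg/L fluoxetine were lost in 7 and 8 of the 16, atf3 without any 1 control array (adjusted p = 0.0809 to 0.168) and xbp1 without fluoxetine 25 µg/L replicate 2 (0.123) or control replicate 2 (0.14) or 3 (0.191). Both were also lost with the GAPDH difference in the fit, quantile normalization, the replicate block or the compared groups alone. The fall of slc3a2b at 250 µg/L fluoxetine (-0.50, 0.0203) was lost without fluoxetine 250 µg/L replicate 1 (0.0983) or 2 (0.0736) or control replicate 1 (0.0818) or 2 (0.0833). That at 25 µg/L sertraline (-0.68, 0.0234) was lost without sertraline 25 µg/L replicate 2 (0.157) or 3 (0.122) and without control replicate 1 (0.105) or 2 (0.106). It was also lost with the replicate block (0.0593) and with the GAPDH difference in the fit. asns, for asparagine synthetase, passed in none of these comparisons with control, and neither did any tRNA synthetase gene.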

How the data were processed

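RNA of 15 pooled whole-larva samples was labelled (5 µg, per the labels) and run on Affymetrix arrays. The deposited values are log2 expression per probe set, made by the authors with GCRMA and Partek, per the submitters' processing notes; the role of each, their versions and a genome build are not given in the sources used here. Of 15617 probe sets, 115 controls were left out; 10795 of the 15502 tested had 1 symbol, 135 several (named for none, 3 of them with a member symbol) and 4572 none. All 87 members matched RefSeq by Entrez number. No sequences are printed.

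limma 3.58.1 was fitted over all 15 arrays, each group with its own mean (R 4.3.3; 10 residual degrees of freedom), with Benjamini-Hochberg adjustment over all probe sets and a threshold of 0.05; figures used matplotlib 3.10.9 (Python 3.11.15). The fit was tested on simulated data. No filter on dim probe sets was used, and 8 members lay under the 40% dimmest level (3.90). Precision is limited by there being 3 arrays in each group.

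The 8 comparisons share arrays, so they are given side by side. Named genes are those that passed, plus in each role the brightest and the one with the smallest F-test p; the genes of the array plot by F-test rank, the largest synthetase differences and eif4a1a's relatives were picked after values were seen. Members and lists were chosen with earlier results of these data known. Alternatives covered scaling, a dim filter, the prior, array weights, a GAPDH covariate, probe set choice, the replicate block, the compared groups alone and left-out arrays. Same-numbered replicates deviated together in all 3 pairs (correlations over 0.1) only between the sertraline groups (0.144 to 0.183). Elsewhere the pairs were mixed, as between the fluoxetine groups (0.354, -0.0325 and 0.397 for replicates 1, 2 and 3). The labels do not say what the number marks, so whether it pairs samples cannot be told.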

Additional observations from a re-analysis of the deposited data

Results flagged for a closer look

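Between the drugs at 25 µg/L, abcf2a was higher with sertraline than with fluoxetine by 1.40 ± 0.25 log2 units (1.3995 unrounded), and at 250 µg/L by 1.15 ± 0.25 (1.1477). etf1b was higher by 0.515 ± 0.108 at 25 µg/L. Each is listed because the difference between the drugs itself passed in limma after Benjamini-Hochberg adjustment (adjusted p = 0.0147, 0.0455 and 0.0324). abcf2a was included with its low values after fluoxetine known, so its results are not independent evidence. The abcf2a call at 250 µg/L was lost in 10 of 16 alternatives, that at 25 µg/L in 3 of 16 and that of etf1b in 7 of 16. Groups of 3 arrays are too small for a test of single outlying samples.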

How the results depend on the processing

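The fall of eif4a1a at 25 µg/L fluoxetine kept its direction in all 16 alternatives and passed in 15, with differences of -1.07 to -1.40. The counts of members that passed moved as follows, and the calls over everything tested in the same fit moved too, so each count is followed by that total in parentheses. At 25 µg/L fluoxetine against control the 2 (392) became 5 (1009) without the 2 arrays with the largest GAPDH difference and 1 (90) in a fit of those groups alone, and 2 to 5 with 1 array left out. At 250 µg/L fluoxetine the 1 (179) became 2 (190) without the dimmest probe sets, 3 (276) with array weights, 0 (61) with the groups alone, and 0 to 1 with 1 array left out. It was 0 without fluoxetine 250 µg/L replicate 1 (74) or 2 (130) or control replicate 3 (115). Between the fluoxetine concentrations the 0 (39) became 1 (113) without the 2 GAPDH arrays and 0 to 1 with 1 array left out, being 1 without fluoxetine 25 µg/L replicate 1 (155) or 3 (119). Between those of sertraline the 0 (0) became 1 (100) with array weights.

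Between the drugs at 25 µg/L the 2 (325) became 4 (329) without the dimmest probe sets, 4 (509) with the trended and robust prior, 4 (394) with the GAPDH covariate, 5 (908) without the 2 GAPDH arrays, 1 (331) with the mean of a gene's probe sets and 0 (54) with the groups alone. It ran from 0 to 5 with 1 array left out, being 5 without fluoxetine 25 µg/L replicate 3 (1007), 4 without replicate 1 (820), 0 without replicate 2 (183), 0 without sertraline 25 µg/L replicate 1 (104) and 1 without its replicate 2 (134) or 3 (137). At 250 µg/L the 1 (213) became 2 (211) with each array centred, 5 (668) with array weights, 0 (48) with the GAPDH covariate, 0 (138) without the 2 GAPDH arrays and 0 (90) with the groups alone. It ran from 0 to 1 with 1 array left out, being 0 without fluoxetine 250 µg/L replicate 1 (101) or 2 (173) or sertraline 250 µg/L replicate 2 (102) or 3 (107). After quantile normalization, and without sertraline 250 µg/L replicate 1, the gene that passed was eif4h in place of abcf2a. The test of any difference gave 6 (676) in place of 3 (432) with array weights. The causes were not tested.

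With the replicate number as a block, the count between the drugs at 250 µg/L went from 1 (213) to 0 (158), since abcf2a had an adjusted p of 0.0642. The call of etf1b at 25 µg/L was lost (0.0554), while eif4ea passed there (-0.32, adjusted p = 0.043, limma). The counts of the other comparisons stayed within 1.5 times. Same-numbered replicates deviated together in every pair only between the sertraline groups, where the block left the count at 0. Elsewhere it cannot be told whether the numbers pair samples. The median of the synthetases between the drugs at 250 µg/L, chosen after seeing the data, ran from 0.147 to 0.249. Dim probe sets and 3 arrays a group limit what small differences can show.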
